A study of Homo sapiens with 9 samples.

Results

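The nuclear genes for the respiratory chain and ATP synthase were examined in HaCaT cells, an immortalized human keratinocyte line, after 1 h in an extremely low frequency electromagnetic field (ELF-EMF; 50 Hz, 1 mT). Members were all probes whose platform symbol began with NDUF, UQCR, COX4 to COX8 or ATP5, or was SDHA to SDHD, CYC1 or CYCS. This rule, which used no measured value, took 97 probes of 76 genes out of 15240 genes named on the array. By symbol, 31 genes belonged to complex I, 2 to complex II, 7 to complex III, 17 to complex IV and 12 to complex V, and CYCS encoded cytochrome c. Of the other 6, NDUFAF1, NDUFA12L and COX7A2L assist assembly, and COX4NB, ATP5S and the pseudogene UQCRFSL1 encode no subunit.

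Both groups were the same line, starved of serum and then given serum again before use. The exposed cells received the field, and the study kept the control cells in another, identical incubator without it. Field and incubator therefore differed together, and no other agent or allele was named. RNA from 3 biological samples (A, B and C) was compared on 2-colour arrays, and each sample took 3 arrays, 2 with the exposed RNA in Cy5 and 1 with the dyes exchanged (dye swap). All log2 ratios below are exposed over non-exposed, with the swaps turned. The labels do not say whether A, B and C were separate cultures, so p-values rest on the spread between these samples. In the first fit below that spread was pooled over all tested probes, and each probe had the same standard error. A single cell line was used and its RNA was taken in bulk, so fewer cells with a transcript and less transcript per cell cannot be told apart.

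The respiratory chain sits in the inner mitochondrial membrane. Complex I takes electrons from NADH and complex II from succinate. Ubiquinone carries them to complex III, and cytochrome c carries them on to complex IV, which reduces oxygen to water. Complexes I, III and IV pump protons outward, and ATP synthase, or complex V, makes ATP as the protons flow back. All complexes except complex II also contain subunits encoded in mitochondrial DNA, which the rule does not cover. The nuclear genes are known to share regulators such as NRF1, GABP and YY1.

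Arrays differed widely in how much was measured. The number of measured probes per array ran from 1164 to 7250 of 30968 (3.76% to 23.4%), and array medians of the deposited log2 ratios ran from -0.35 to 0.38. The second array of sample C stood apart. As deposited, its ratios correlated with those of the 3 dye swaps (r = 0.36, 0.42 and 0.36, across probes) and by -0.19 to 0.10 with those of the other arrays of its own orientation. The swaps correlated with each other at 0.38 to 0.45. The calls and the medians of the complexes are also given without that array. Of 12 keratinocyte marker genes on the array, 11 had a value on at least 1 array, against 1 of 4 fibroblast, 1 of 4 melanocyte and 0 of 2 leukocyte markers. Ratios hold no levels, so this check rests on which markers were measured.

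Respiratory chain probes were measured more often than the array at large. Of the 97 probes, 72.2% had a value in at least 2 biological samples, against 25.6% of all named probes. A value in both dye orientations of all 3 samples (dye-balanced) was present for 16.5%, against 2.83%. By gene, 57 members had a value in at least 2 samples, 16 of them dye-balanced in all 3. A further 7 had a value in 1 sample only, and 12 had none. The step that left probes without a value is not stated, so a missing value does not say that a transcript was absent.

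The measured share differed by complex. Values in at least 2 samples were present for 26 of 31 genes of complex I, 2 of 2 of complex II, 6 of 7 of complex III, 9 of 12 of complex V and 9 of 17 of complex IV. The 8 genes of complex IV without any value were COX4I2, COX6A2, COX6B2, COX7A1, COX7B2, COX8C, NDUFA4 and NDUFA4L2. The first 6 are known as isoforms used mainly in particular tissues such as muscle, lung or testis. Their counterparts COX4I1, COX6B1, COX7B and COX8A were measured. NDUFA4, which is broadly expressed, also had no value. Outside complex IV, NDUFC2, NDUFS1, ATP5E and ATP5J had none.

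**Figure D1:**
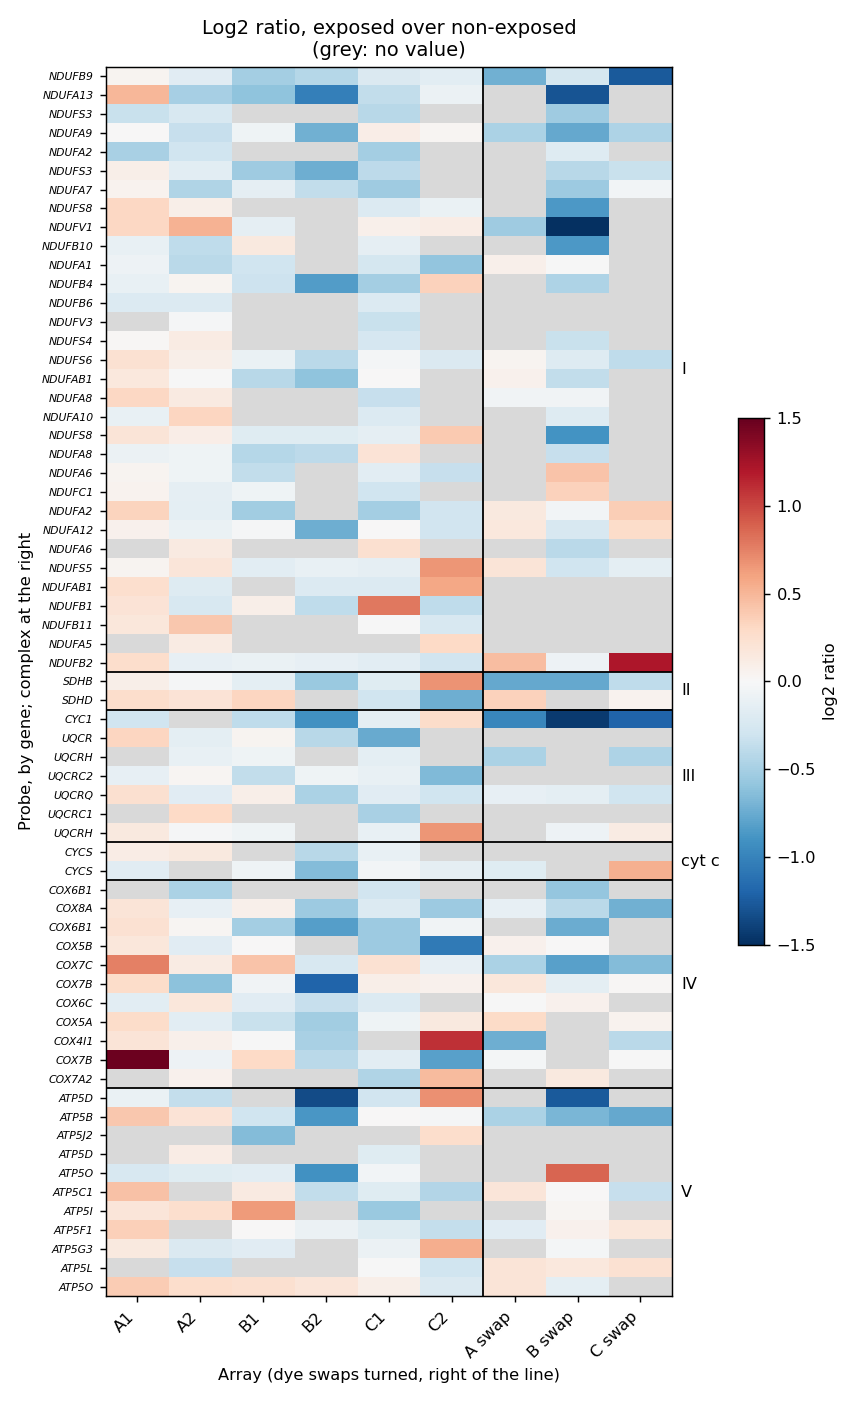
Log2 ratio of exposed over non-exposed cells for each subunit probe with a value in at least 2 samples (rows, by complex) on the 9 arrays (columns). Blue is lower and red higher in exposed cells, and grey means no value. Array B2 is almost wholly blue and array A1 mostly red. Over all measured member probes, drawn or not, 36 of 37 lay below 0 on B2 and 43 of 58 above 0 on A1. Of all probes measured on these arrays, 77.9% on B2 and 40.1% on A1 lay below 0.

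Of the 16 dye-balanced members, cytochrome c1 of complex III and the complex I subunit NDUFB9 were lower in exposed cells and none was higher. A sample's value was the mean of its Cy5 arrays averaged with its swap, and the 3 values were fitted with limma over all 570 dye-balanced probes. This called 2 members, beside 22 probes lower (3.86% of those tested) and 0 higher in all. At an unadjusted p under 0.05 there were 6 members, all lower, and 116 probes. The median log2 ratio of the 16 was -0.14 and that of the 570 probes was -0.12. After median centring of the arrays, the tested median was -0.019, the members' median became -0.032, and the calls split into 13 lower and 4 higher.

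Below 0 lay 14 of the 16 members with array medians kept, 10 with arrays centred, where NDUFA12, NDUFA2, NDUFS5 and ATP5C1 changed sign, and 12 after quantile normalization, where NDUFS5 and ATP5C1 did. Of all tested probes, 75.3% lay below 0, and 53.7% after centring. Values were below 0 in all 3 samples for 8 of 16 members, against 32.8% of tested probes. The samples differed: 9 members were below 0 in A, 15 in B and 12 in C, and B was the lowest of the 3 for 10 of 16. The medians of the tested probes followed the same order, at 0.034 in A, -0.26 in B and -0.14 in C, and the medians of the 16 members were -0.011, -0.31 and -0.23. The part of these array-wide shifts in single members was not tested.

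**Figure D2:**
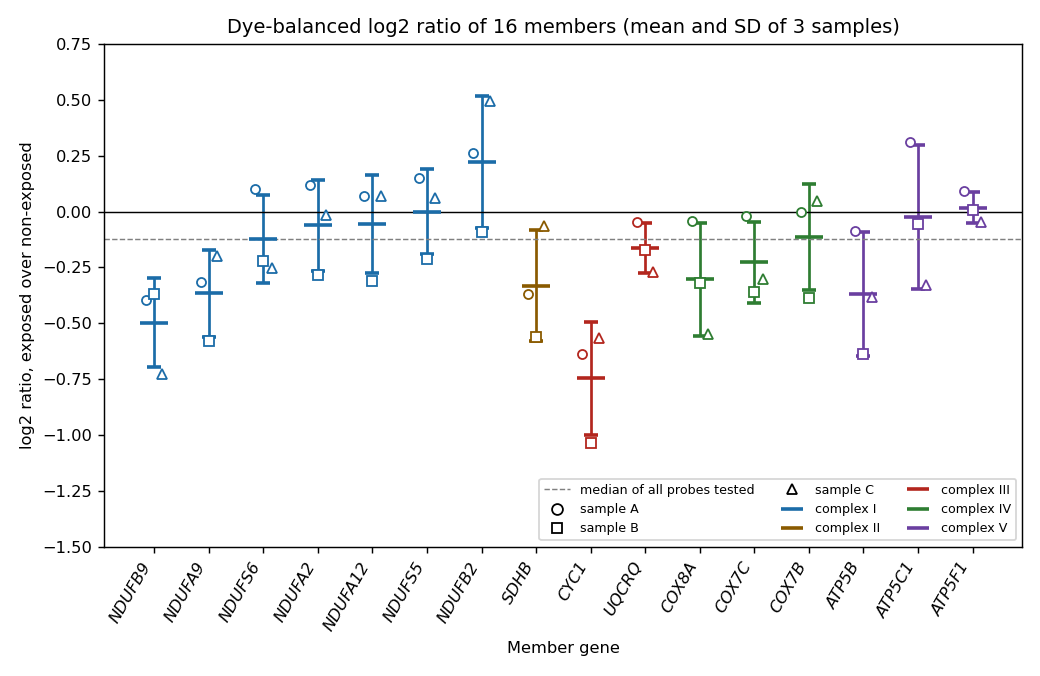
Dye-balanced log2 ratio of the 16 members, grouped by complex. Open symbols are samples A, B and C, the horizontal bar is their mean and the error bar the SD (n = 3), and the dashed line is the median of the 570 tested probes, -0.12. CYC1 and NDUFB9 lie lowest, and NDUFB2 is the highest mean at 0.22.

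In complex I, the 7 dye-balanced subunits ran from NDUFB9 at the bottom to NDUFB2 at the top. NDUFB9, an accessory subunit of the membrane arm, had log2 ratios of -0.40 in A, -0.37 in B and -0.73 in C. Its mean was -0.50 ± 0.20 (SD, n = 3), a linear ratio of 0.709 (standard error 0.15 on the log2 scale, limma adjusted p = 0.036). It was below 0 on 8 of 9 arrays, and array A1 was the exception at 0.037. The array of lowest value was the swap of C, at -1.27. The call depended on the setting. Centring gave -0.39 (limma adjusted p = 0.11), and leaving out A, B or C gave -0.55, -0.56 or -0.38, none of them past the threshold. Without the second array of C it stayed at -0.50 (limma adjusted p = 0.029). Its mean was -0.24 with exposed RNA in Cy5 (limma adjusted p = 0.80) and -0.75 on the swaps (limma adjusted p = 0.086). It did not pass with quantile normalization (limma adjusted p = 0.0605) or the robust option (limma adjusted p = 0.0515). Nor did it pass on its own spread (adjusted p = 0.60 by the limma fit without moderation).

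NDUFA9, an accessory subunit near the junction of the matrix and membrane arms, was at -0.32, -0.58 and -0.20 in A, B and C. All 3 samples lay below 0, yet its mean of -0.37 ± 0.19 did not pass (limma adjusted p = 0.15). NDUFB2, another accessory subunit of the membrane arm, was at 0.26 in A, -0.092 in B and 0.49 in C. Its mean of 0.22 ± 0.29 was the highest of the 16 and did not pass (limma adjusted p = 0.42). That mean came from the swaps, where C reached 1.21 and A 0.46, while 5 of the 6 Cy5 arrays lay between -0.28 and -0.099. The remaining accessory subunits had means close to 0, at -0.12 ± 0.20 for NDUFS6, -0.061 ± 0.20 for NDUFA2, -0.056 ± 0.22 for NDUFA12 and -0.00042 ± 0.19 for NDUFS5. By these probes each was above 0 in A and below 0 in B. NDUFA2 had another probe, at -0.36 ± 0.16 without dye balance and below 0 on all 4 of its arrays.

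Complex II, which also works in the citric acid cycle, was represented by 2 of its genes, and they lay on opposite sides of 0. SDHB, the iron-sulfur subunit, was at -0.37 in A, -0.56 in B and -0.066 in C, with a mean of -0.33 ± 0.25 (limma adjusted p = 0.20). Its second array of sample C read 0.67, the highest of its 9 arrays, and without that array the mean was -0.40 (limma adjusted p = 0.089). SDHD, a membrane anchor, lacked a swap in B. It was at 0.29, 0.32 and -0.23, a mean of 0.13 ± 0.31.

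Promoters of 3 dye-balanced members with low means are shown to place them beside the regulators named above. RefSeq windows of GRCh38.p14, 250 bases before to 50 after each gene's start, were found for 60 of the 76 genes and for 12 of the 16. None was found for CYC1, NDUFB9, ATP5B or NDUFS5, so the called members CYC1 and NDUFB9 are not shown. Capitals mark matches, on either strand, to GCGCANGCG (the NRF1 core), CCGGAAG (an ETS core, as bound by GABP) or AAGATGGCG (a YY1 core). Sequences run 5′ to 3′ along the gene's strand.
NDUFA9 promoter, chr12:4648864-4649163, plus strand: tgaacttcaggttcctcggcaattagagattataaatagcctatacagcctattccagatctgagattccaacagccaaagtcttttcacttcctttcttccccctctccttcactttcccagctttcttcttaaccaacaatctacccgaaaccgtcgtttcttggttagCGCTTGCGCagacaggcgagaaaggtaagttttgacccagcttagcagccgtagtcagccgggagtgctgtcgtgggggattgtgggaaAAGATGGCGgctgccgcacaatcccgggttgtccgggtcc
SDHB promoter, chr1:17053983-17054282, minus strand: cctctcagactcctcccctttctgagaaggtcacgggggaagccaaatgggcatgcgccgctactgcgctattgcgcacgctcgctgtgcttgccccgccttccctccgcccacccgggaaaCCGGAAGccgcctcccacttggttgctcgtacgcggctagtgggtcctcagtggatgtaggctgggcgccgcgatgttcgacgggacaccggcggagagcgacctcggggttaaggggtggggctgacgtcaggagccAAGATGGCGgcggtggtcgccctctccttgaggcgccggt
COX8A promoter, chr11:63974370-63974669, plus strand: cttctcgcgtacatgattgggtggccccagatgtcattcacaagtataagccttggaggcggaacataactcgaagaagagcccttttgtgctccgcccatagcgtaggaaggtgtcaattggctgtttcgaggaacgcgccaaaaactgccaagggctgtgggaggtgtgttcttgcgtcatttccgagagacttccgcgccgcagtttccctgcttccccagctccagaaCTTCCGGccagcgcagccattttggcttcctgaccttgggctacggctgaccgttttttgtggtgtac
NDUFA9 held 1 match to the NRF1 core and 1 to the YY1 core, SDHB held 1 to the ETS core and 1 to the YY1 core, and COX8A held 1 to the ETS core. The window of COX7C, the next lowest mean with a window, held none. Among 56 subunit genes with a window, 26.8% held the NRF1 core, 30.4% the ETS core and 12.5% the YY1 core. Among the 12 dye-balanced members with a window the shares were 33.3%, 25% and 16.7%. Among 15843 protein-coding windows of the same length they were 11.0%, 14.2% and 2.74%. Whether a match goes with a lower ratio was not tested. A match describes letters and not a bound site.

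The lowest mean of the dye-balanced members was in complex III, which hands electrons from ubiquinol to cytochrome c. CYC1 encodes cytochrome c1, the heme subunit that makes this transfer. Its log2 ratios were -0.64 in A, -1.04 in B and -0.57 in C, and all 3 samples lay below the median of the tested probes. The mean was -0.75 ± 0.25 (SD, n = 3), a linear ratio of 0.596 (standard error 0.15 on the log2 scale, limma adjusted p = 0.00038). Array by array, exposed RNA in Cy5 gave -0.30 in A1, -0.38 and -0.91 in B1 and B2, and -0.14 and 0.28 in C1 and C2, and A2 had no value. The swaps gave -0.97 in A, -1.43 in B and -1.20 in C. Every swap was lower than every Cy5 array.

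CYC1 therefore had a mean of -0.29 with exposed RNA in Cy5 (limma adjusted p = 0.73) and -1.20 on the swaps. It passed with arrays centred, at -0.64 (limma adjusted p = 0.0094), and without the second array of C, at -0.78 (limma adjusted p = 0.00018). It did not pass without sample B, at -0.60 (limma adjusted p = 0.073), or on its own spread in place of the standard error that limma gave all probes (adjusted p = 0.60 by the limma fit without moderation). UQCRQ, a small subunit of the same complex, was at -0.046, -0.17 and -0.27, and its mean of -0.16 ± 0.11 did not pass (limma adjusted p = 0.58).

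The 4 other measured genes of complex III were not dye-balanced. UQCRC2, a core protein, was measured on Cy5 arrays alone, at -0.045, -0.22 and -0.39 in A, B and C. UQCR, the small subunit now named UQCR11, was at 0.088, -0.19 and -0.75, so its samples spread over both sides of 0. UQCRC1, the other core protein, was at 0.30 in A and -0.49 in C on 1 array each. UQCRH, the hinge protein that contacts cytochrome c1, had a mean of -0.077 ± 0.032 over its probes, but these went apart, at -0.22 and 0.065. UQCRB, a ubiquinone-binding subunit, had a single value of 0.11, on the second array of sample A, and no comparison could be made.

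Complex IV, cytochrome c oxidase, had 3 dye-balanced members, all small nuclear subunits that surround the mitochondrially encoded core. COX8A was at -0.043, -0.32 and -0.55 in A, B and C, all below 0, with a mean of -0.30 ± 0.25 (limma adjusted p = 0.24). COX7C was at -0.019, -0.36 and -0.30, also all below 0, with a mean of -0.23 ± 0.18 (limma adjusted p = 0.41). COX7B was at -0.0018, -0.39 and 0.045 by its dye-balanced probe, with a mean of -0.11 ± 0.24. Its other probe read 1.47 on array A1 and had a mean of 0.010 ± 0.29, so the pair did not give a direction for the gene.

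Within complex IV, COX7C passed the test for the dye itself. With exposed RNA in Cy5 it was above 0 on 4 of 6 arrays, at 0.75 and 0.12 in A, 0.43 and -0.24 in B and 0.23 and -0.13 in C, a mean of 0.19. On the swaps it was -0.47, -0.82 and -0.65, a mean of -0.65. The balanced mean of -0.23 averages these opposite readings.

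Among the other genes of complex IV, COX6B1 lay lowest. It encodes a subunit on the intermembrane-space side and was at -0.17 in A, -0.64 in B and -0.29 in C, averaged over 2 probes. The mean was -0.37 ± 0.24, and in A the probes went apart, at -0.47 and 0.13. COX5B was near 0 in A and B, at 0.032 and 0.010, and at -0.80 in C on Cy5 arrays alone. COX4I1, the common isoform of the regulatory subunit, was at -0.30, -0.25 and 0.34, and its second array of C alone read 1.09. COX7A2 was the highest, at 0.061, 0.15 and 0.0089, a mean of 0.073 ± 0.072. Its value in A came from 1 Cy5 array and that in B from the swap alone. In C its Cy5 arrays read -0.45 and 0.47, so the small SD does not show agreement between arrays.

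ATP synthase had 3 dye-balanced members, none of which passed. ATP5B, now named ATP5F1B, encodes the beta subunit that forms ATP. It was at -0.085 in A, -0.64 in B and -0.38 in C, with a mean of -0.37 ± 0.28, a linear ratio of 0.774 (limma adjusted p = 0.14). Its swaps were all negative, from -0.76 to -0.48, while its Cy5 arrays ran from -0.87 to 0.40. ATP5C1, the gamma subunit of the rotating shaft, was at 0.31, -0.055 and -0.33, so its samples fell on both sides of 0 around a mean of -0.024. ATP5F1, the b subunit of the stator, was at 0.092, 0.0086 and -0.048, the narrowest spread of the 16 with an SD of 0.071. In A its array A1 read 0.36 and its swap -0.17. In C the Cy5 arrays read -0.18 and -0.36 and the swap 0.17. Its small SD therefore does not show agreement between arrays.

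Of the 6 other measured subunits of complex V, ATP5D, ATP5I and ATP5J2 differed widely between samples. ATP5D, the delta subunit of the shaft, was at -1.30 in B against -0.058 in A and 0.0073 in C, a mean of -0.45 ± 0.74. In A and C its probes went apart, at 0.115 and -0.230 in A and at -0.184 and 0.199 in C. The value in B came from the second of these probes alone. ATP5I, the small e subunit, named after its values were seen, was at 0.22, 0.33 and -0.56. ATP5J2 had 1 array in B, at -0.65, and 1 in C, at 0.26. The highest means were 0.038 ± 0.11 for ATP5L and 0.032 ± 0.17 for ATP5G3, the latter encoding the proton-carrying c subunit.

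In the wider fit over all probes with a value in at least 2 samples, 0 of 70 member probes and 0 of 5688 probes passed limma (0%). At an unadjusted p under 0.05 there were 4 member probes, all lower, and 216 probes. Of the 70 probes 57 (81.4%) lay below 0, against 65.8% of all, and with arrays centred the shares were 58.6% and 51.3%. Values with 1 dye orientation enter here and are not dye-balanced. In complex I the lowest of the genes that lacked full dye balance were NDUFA13, at 0.0014, -1.05 and -0.23 in A, B and C, and NDUFS3, a core subunit, at -0.16, -0.53 and -0.39. The highest were NDUFA5, at 0.12 in A and 0.30 in C, and NDUFB11, at 0.29 in A and -0.13 in C. NDUFV1, the core subunit that oxidizes NADH, illustrates the spread, at -0.057 in A, -0.84 in B and 0.093 in C, and is named after its values were seen.

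Set side by side with all measured genes counted, complexes I and III had the lowest medians and complex V the highest. Over the genes measured in 2 or 3 samples, the median log2 ratio was -0.17 in complex I (22 of 26 genes below 0), -0.10 in complex II (1 of 2), -0.19 in complex III (6 of 6), -0.10 in complex IV (8 of 9) and -0.0016 in complex V (5 of 9). Over all 53 subunit genes, cytochrome c included, it was -0.12, with 43 genes (81.1%) below 0. Over all 5688 probes it was -0.091. After centring the medians were -0.056, -0.021, -0.12, -0.018 and 0.086 for complexes I to V and -0.0068 for all probes, so complex V then lay above 0. Without the second array of sample C they were -0.17, -0.12, -0.14, -0.17 and -0.0020. Complexes I to V had 7, 1, 2, 3 and 3 dye-balanced members. The medians of these alone were -0.061, -0.33, -0.45, -0.23 and -0.024. Complex I then lay above the median of the 570 tested probes, -0.12, so its low place depended on genes without full dye balance. It also depended on averaging the probes of a gene. With every probe counted the medians were -0.112, -0.103, -0.216, -0.114 and -0.029 for complexes I to V, and complex IV lay below complex I. Differences between complexes were not tested.

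The order of the complexes also shifted between samples. In A all 5 medians lay between -0.045 and -0.00028. In B they were -0.32 for I, -0.12 for II, -0.19 for III, -0.25 for IV and -0.055 for V. In C they were -0.17, -0.15, -0.44, -0.21 and -0.048. The medians of all 5688 probes were 0.052 in A, -0.27 in B and -0.10 in C. Below these lay all 5 complexes in A, complex I alone in B, and all except complex V in C. Complex V was the nearest to 0 in B and C, and complex I was lowest in B and complex III in C. CYCS, the carrier between complexes III and IV, had a mean of -0.12 ± 0.24 over its measured probes.

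**Figure D3:**
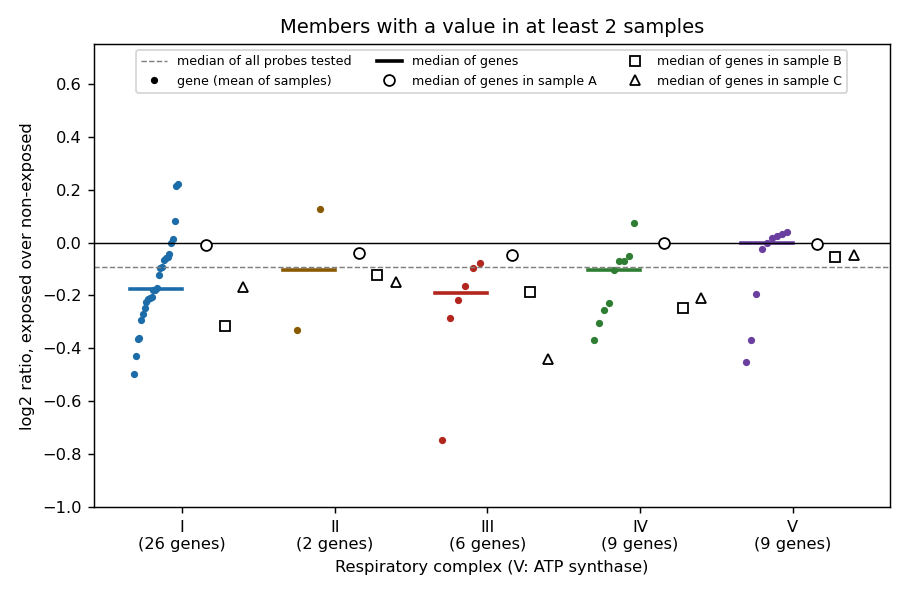
Log2 ratio of exposed over non-exposed cells by complex, for member genes measured in 2 or 3 samples. Dots are genes, the thick bar is their median, open symbols are the medians within samples A, B and C, and the dashed line is the median of all 5688 probes, -0.091. Sample A lies near 0 in every complex, and the median of complex V is -0.0016.

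Members read differently in the 2 dye orientations. With exposed RNA in Cy5 the means of the 16 ran from -0.29 to 0.19, and on the swaps from -1.20 to 0.53. Both means were below 0 for 8 of 16 and of opposite sign for 7, and the swap mean was the larger in size for 13. The median was -0.11 in Cy5 and -0.18 on the swaps, beside -0.069 and -0.18 over the 570 probes. The 2 means had a Pearson r of 0.11 across the 16 members and -0.11 across all tested probes. These are descriptions, since the points share arrays. With only Cy5 arrays 0 members passed limma, beside 19 of the 570 probes. With only swaps CYC1 was the only member to pass, beside 10 of the 570 probes.

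A limma fit of all 9 arrays with terms for exposure and dye tested the dye itself. It called 43 of 570 probes (7.54%), among them 2 members, CYC1 with a dye term of 0.46 (limma adjusted p = 0.022) and COX7C with 0.42 (limma adjusted p = 0.020). COX7C read higher in Cy5 than in Cy3 in both orientations, with mean log2 Cy5 over Cy3 of 0.19 and, on the swaps before turning, 0.65. CYC1 did not, at -0.29 and 1.20. In the same fit the exposure term passed for 9 of 570 probes. Among them were 2 members of 16, CYC1 at -0.74 (limma adjusted p = 0.011) and NDUFB9 at -0.50 (limma adjusted p = 0.041). With a consensus correlation of -0.078, this fit took the arrays of a sample as nearly independent. Its p-values therefore rest on technical repeats too and are no separate support for the calls from 3 samples.

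**Figure D4:**
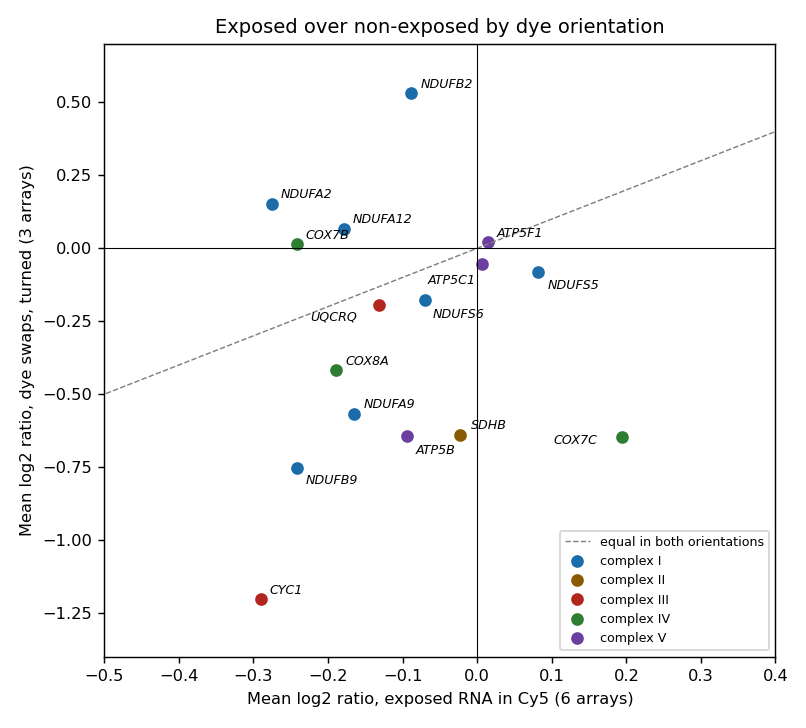
Mean log2 ratio of the 16 dye-balanced members with exposed RNA in Cy5 (x axis, 6 arrays) against the turned dye swaps (y axis, 3 arrays), coloured by complex. The axes have different scales and points on the dashed line would read equally in both. CYC1 lies at -0.29 and -1.20, COX7C at 0.19 and -0.65, and NDUFB2 at -0.088 and 0.53.

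Of the genes that assemble or serve the chain, none was called. Of 46 assembly factors, electron donors and carriers outside the rule, 42 were on the array, and of 29 probes with a value in at least 2 samples 24 lay below 0 and 5 above, with a median of -0.15 and 0 called by limma, where 65.8% of all 5688 probes lay below 0 with a median of -0.091. The 7 dye-balanced probes of this list all lay below 0, as did 75.3% of the 570 tested, again with 0 called. These counts keep the array medians, and the list was not counted after centring. Its counts therefore cannot be set beside the centred shares over all probes, which were 51.3% of 5688 and 53.7% of 570. The lowest of these 7 was ATP5IF1, the inhibitor of ATP hydrolysis by ATP synthase, at -0.35, -0.71 and -0.25 in A, B and C. SLC25A6, an ADP and ATP carrier, was at -0.039, -0.66 and -0.27, and SCO2, a copper chaperone of complex IV, was at -0.33, -0.40 and -0.44 without dye balance. The highest mean of the 29 probes was that of TTC19, at 0.58 in A and 0.26 in C, also without dye balance.

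Few of the transcriptional regulators of respiratory genes were measured in at least 2 samples, as was the case for the array at large. Of 13 listed, 11 were on the array, with 14 probes. A value in at least 2 samples was present for 4 of these probes, against 25.6% of all named probes. Of the 4, 2 lay below and 2 above 0, with 0 called. TFB2M, a transcription factor of mitochondrial DNA, was the dye-balanced one, at -0.097, -0.20 and 0.0060. YY1 was at 0.0093, 0.28 and -0.28.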

How the data were processed

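HaCaT RNA was hybridized on 9 2-colour Phalanx Human OneArray slides, 3 for each of 3 biological samples. The authors normalized the scans in ScanArray Express, by a method not named, and deposited log2 values, 1 for each probe on each array, read here as Cy5 over Cy3. The table states neither scale nor direction. Taken as log2, 86.6% to 99.1% of the values of an array correspond to linear ratios with at most 3 decimals (tolerance 0.05 thousandths), and the direction was taken from the dyes in the labels. All 9 columns were used. Intensities, backgrounds and slides were not analysed here, so signal over background is unknown, and only the number of arrays limits the precision given.

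The members and gene lists were chosen with earlier results of these data known. Of 30968 probes 17397 carried 1 gene symbol, and 75 of the 76 member genes matched RefSeq (GRCh38.p14), 57 by current symbol and 18 by synonym. NDUFA4 was ambiguous. Probe sequences were not analysed here, so signal from paralogs or pseudogenes could not be checked. Probes of 1 gene were averaged for the complexes and kept apart in the tests.

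Dye-balanced values (the mean of a sample's Cy5 arrays, averaged with its turned swap) went into a limma fit (version 3.58.1, R 4.3.3) of an intercept with eBayes moderation. Tests were two-sided, with Benjamini-Hochberg adjustment across 570 probes and a threshold of 0.05, in place of the SAM software of the study. Limma gave all these probes the same standard error. A second fit took the 5688 probes measured in 2 or 3 samples. The dye fit used 9 arrays and sample as random block, with a consensus correlation of -0.078. The scripts were tested on simulated data. Named genes were all dye-balanced members, the 2 lowest and 2 highest other genes of each complex, and UQCRB and COX6B1, which the study lists. Alternatives were the swaps unturned, each orientation alone, centring, quantile normalization, other estimates of the spread, other filters, a plain mean, the 9-array fit and leaving out each sample. Leaving out the second array of sample C, and 2 filters for the complex medians, were chosen after seeing the data.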

Additional observations from a re-analysis of the deposited data

Results flagged for a closer look

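The turned ratios of 2 members differed between the dye orientations, with a dye term past the limma threshold, CYC1 at 0.46 (adjusted p = 0.022) and COX7C at 0.42 (adjusted p = 0.020). For NDUFB2, array A1 read 0.26 while the other 5 arrays with exposed RNA in Cy5 lay between -0.28 and -0.099. It was the only one flagged among 29 probes of named genes, and chance flags about 1 in 20 groups.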

How the results depend on the processing

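Of the 22 probes and 2 members called on dye-balanced values, other settings of limma gave fewer in most cases. Arrays with exposed RNA in Cy5 alone gave 19 probes, 14 higher and 5 lower, and 0 members, with 0 at an unadjusted p under 0.05, and swaps alone gave 10 probes and 1 member. Centring gave 17 probes and 1 member, quantile normalization 10 and 1, the robust option 16 and 1, and a plain mean of the 3 arrays 11 and 1. Dye balance in at least 2 samples gave more probes, 25 of 1205 tested, and 1 member. With each probe on its own spread 0 probes and 0 members passed (2 members at an unadjusted p under 0.05). The 9-array fit with the sample as random block gave 9 probes and 2 members. Leaving out 1 sample gave 3 to 10 probes and 0 to 1 members, the lowest without sample B (3 and 0). Without the second array of C there were 39 probes and 2 members. Leaving the swaps as deposited, which contradicts the labelled dyes, gave 33 probes, all higher, and 2 members. NDUFB9 was then at 0.26, CYC1 at 0.46 and COX7C at 0.42, and 13 of the 16 dye-balanced members changed sign. Among those 16, signs changed for 4 with Cy5 arrays alone, 3 with swaps alone, 4 with centring and 4 without sample B.

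In the wider fit, where 0 probes passed, Cy5 arrays alone gave 56, own spreads 3, and leaving out 1 sample 0 to 23 (23 without B, 2 without C), with 0 members in each. Centring lowered the dye calls from 43 to 26 and from 2 members to 1. The median of complex II was -0.021 after centring, -0.0059 with Cy5 arrays alone and -0.22 with swaps alone. That of complex V was 0.086 after centring, -0.054 with Cy5 arrays alone, and between -0.11 (without A) and 0.045 (without C). The cause of these changes was not tested.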
